A study of Mus musculus with 12 samples.

Results

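Long-chain and very-long-chain fatty acids are handled in the heart as thioesters of coenzyme A, and 9 genes that act on these thioesters at the peroxisome or cleave them were followed in left ventricles with and without deletion of Gch1 in cardiomyocytes. They were chosen by symbol: each is a row of the count table whose Ensembl identifier carries the symbol Ehhadh, Hsd17b4, Acaa1a, Abcd3, Acot1, Acot2, Acot7, Acot9 or Acot13 in GENCODE M21, so they are 9 of 26921 genes listed. Peroxisomal β-oxidation genes are represented by Ehhadh, Hsd17b4 and Acaa1a, with Abcd3 as the importer, and acyl-CoA thioesterases by the other members.

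The study asked what loss of tetrahydrobiopterin synthesis in heart muscle cells does to the heart, and left ventricular RNA was sequenced at 16 weeks of age in mice. The 6 WT mice carried floxed Gch1 alleles (Gch1 fl/fl) and no Cre, and the 6 cmGch1 KO mice carried the same floxed alleles plus a heterozygous α-MHC-Cre transgene, whose promoter is active in cardiomyocytes, so that other cell types of the ventricle keep Gch1. Both genotypes therefore share the floxed allele, and a Cre-only genotype that the study also bred was not analysed here, so that effects of Cre and of Gch1 loss cannot be told apart. Neither group received a treatment, and each library came from a separate sample.

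Libraries held 19921398 to 37917806 counts, with 22356463 to 37917806 in WT and 19921398 to 35480715 in cmGch1 KO, so 3 counts correspond to 0.0832 to 0.14 cpm (counts per 1000000 counts of the TMM-scaled library size). Gch1, the rate-limiting gene of tetrahydrobiopterin synthesis, was below every WT library in all 6 cmGch1 KO libraries (10.7 ± 0.979 against 5.51 ± 0.859 cpm, mean ± SD, n = 6 each). Cardiomyocyte markers were abundant, with the sum of Myh6, Tnnt2, Tnni3, Actn2, Ryr2 and Mb at 42903 cpm or more in every library. Libraries of cmGch1 KO replicates 2 and 3 stood apart: they alone had high Xist (87.1 and 99.6 cpm, at most 0.235 elsewhere) and a summed level of 0 for 4 Y-linked genes (168 to 193 cpm elsewhere), and their mitochondrially encoded share was 14.9% and 16.1% against 18.3% to 22.9%. Sex is not given in the labels. Without both libraries the median log2 fold change of the 9 genes was −0.15, and 0 of them passed an adjusted p of 0.05 in edgeR.

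As background, peroxisomes shorten fatty acids that mitochondria handle poorly, such as very-long-chain and dicarboxylic acids. Abcd3 (PMP70) carries their CoA esters across the peroxisomal membrane, Ehhadh or Hsd17b4 (the L- and D-bifunctional enzymes) hydrates and dehydrogenates the unsaturated ester, and a thiolase such as Acaa1a releases acetyl-CoA. Acyl-CoA thioesterases hydrolyse acyl-CoA to free fatty acid and CoA in several compartments: Acot1 in the cytosol, Acot2 and Acot9 in mitochondria, Acot7 in the cytosol and Acot13 at mitochondria. Several of these genes, among them Ehhadh, Abcd3, Acot1 and Acot2, are known targets of the nuclear receptor PPARα, which senses fatty acids in liver and heart.

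Acot1 and Acot2 are neighbours, and their sequence decides how far their counts can be kept apart. In GRCm38, Acot2 (ENSMUSG00000021226) lies at chr12:83987861-83993873 and Acot1 (ENSMUSG00000072949) at chr12:84009490-84018371, both on the plus strand with 15616 bases between them. Over 1236 aligned coding bases 1178 were identical (95.3%), with a longest identical run of 273 bases. A stretch of 90 coding bases in which they differ at 14 positions is shown, with the differing bases in capitals. Taken without its mate, a read within the shared coding part can be assigned to either gene only where it covers such positions. The stretch is at chr12:83992638-83992727 in Acot2 and chr12:84016916-84017005 in Acot1, plus strand.
Acot2: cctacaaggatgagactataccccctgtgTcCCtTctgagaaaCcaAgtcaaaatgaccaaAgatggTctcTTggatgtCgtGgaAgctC
Acot1: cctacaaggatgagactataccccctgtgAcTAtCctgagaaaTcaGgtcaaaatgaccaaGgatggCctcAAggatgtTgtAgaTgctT

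Acot2 also opens with 123 coding bases at chr12:83987902-83988024 that have no counterpart in Acot1, the part of the coding sequence where the mitochondrial and the cytosolic enzyme differ in their start.
Acot2 leader: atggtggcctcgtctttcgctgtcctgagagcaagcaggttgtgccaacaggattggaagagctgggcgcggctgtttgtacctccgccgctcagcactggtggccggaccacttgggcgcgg
Of all 75-base runs in the annotated transcripts of Acot1, 15% also occurred in transcripts of another gene, mostly Acot2, and of those of Acot2 21.2%. At 100 bases the shares were 12.4% and 17.1%. These shares are for single runs, and the mates of the paired-end reads were not considered. Taken alone, reads of this kind are uncertain for both genes. How the counting treated reads that map to more than 1 place is not given in the sources used here.

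The bases just before the genes were not alike. The 250 bases before the RefSeq start of each gene (GRCm38.p6, plus strand, chr12:83987611-83987860 for Acot2 and chr12:84009252-84009501 for Acot1) are shown, since Acot1 and Acot2 are both named as PPARα targets and differed in their change between genotypes. Capitals mark 13 letters with the fewest mismatches to the consensus peroxisome proliferator response element (DR1), searched on both strands. This element is a direct repeat with 1 base between its arms, to which PPARα with its partner RXR binds. Only 1 stretch is marked per gene, and in Acot1 another stretch, on the other strand, had as few mismatches.
Acot2 upstream: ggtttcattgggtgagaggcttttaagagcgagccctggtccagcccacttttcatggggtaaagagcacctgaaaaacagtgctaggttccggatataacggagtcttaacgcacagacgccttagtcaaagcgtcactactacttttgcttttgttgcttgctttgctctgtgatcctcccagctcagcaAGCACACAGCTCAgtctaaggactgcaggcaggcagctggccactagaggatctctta
Acot1 upstream: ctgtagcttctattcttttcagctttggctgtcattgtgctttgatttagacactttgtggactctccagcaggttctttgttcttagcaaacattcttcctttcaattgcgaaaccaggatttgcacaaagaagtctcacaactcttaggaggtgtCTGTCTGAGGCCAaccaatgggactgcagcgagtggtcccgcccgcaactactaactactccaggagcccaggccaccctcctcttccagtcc
The closest letters had 3 mismatches in Acot2 and 4 in Acot1. Of the 9 genes, 7 had such a RefSeq window of 300 bases (250 before to 50 after the start), and none of them held the motif with 2 or fewer mismatches, against 3.86% of all 32851 windows (0.0396% held it exactly). At such a share, none is the usual outcome for 7 genes, and sequence outside the windows was not searched. The windows of Acot1 and Acot2 shared no run longer than 9 bases.

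Acot1 was the gene with the largest difference between genotypes among the 9. In WT it had a lowest level of 15, a median of 22.6 and a highest of 27.2 cpm, and in cmGch1 KO 8.38, 13.4 and 16.8 cpm. All 6 cmGch1 KO libraries were below the WT median, 5 of 6 WT libraries were above the highest cmGch1 KO library, and the genotypes overlapped only through WT replicate 6 (15 cpm). The mean was 21.7 ± 4.33 cpm in WT, and in cmGch1 KO 13.1 ± 3.2 cpm (SD, n = 6 each), or 60.3% of WT. The log2 fold change of −0.73 (SE 0.17, 95% interval −1.10 to −0.36) had an adjusted p of 0.0644 in the quasi-likelihood test of edgeR (Benjamini-Hochberg over 11225 genes), so it missed the threshold of 0.05, at rank 137 by p. It passed in other fits: adjusted p was 0.00311 with DESeq2, 0.033 without WT replicate 6 and 0.0473 without cmGch1 KO replicate 4, within a range of 0.00311 to 0.141 over all alternatives. Without cmGch1 KO replicates 2 and 3 the log2 fold change was −0.86 with an adjusted p of 0.123.

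Acot2, the mitochondrial neighbour, gave a lowest, median and highest level of 85.4, 95 and 105 cpm in WT, and in cmGch1 KO of 72.5, 84.1 and 107 cpm. Of 6 cmGch1 KO libraries 4 were below every WT library. Replicates 3 and 4 (104 and 107 cpm) were among the high values of both genotypes, so that the cmGch1 KO range enclosed that of WT. The log2 fold change was −0.10 (SE 0.10, 95% interval −0.30 to 0.11, edgeR adjusted p = 0.81), an interval that still allows a log2 difference as low as −0.30.

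Set against each other, the neighbours differed in balance between genotypes. The ratio of Acot2 to Acot1 cpm, which does not depend on library scaling, was 3.57, 4.26, 4.44, 3.85, 4.93 and 5.69 in WT replicates 1 to 6 and 6.16, 5.2, 6.65, 6.33, 10 and 7.42 in cmGch1 KO replicates 1 to 6. Of 6 cmGch1 KO libraries 5 were above the highest WT library, and replicate 2 at 5.2 lay within the WT range. The mean ratio was 4.46 ± 0.766 in WT and 6.96 ± 1.66 in cmGch1 KO (SD). The difference of 0.63 on the log2 scale (1.55-fold) gave p = 0.00433 in a two-sided exact permutation test, and 0.013 adjusted over the 3 derived quantities tested, where 0.00216 is the smallest p the design can give. Acot1 made up 14.9% to 21.9% of the summed cpm of both genes in WT and 9.03% to 16.1% in cmGch1 KO. The sum itself was 116 ± 11 cpm in WT, and in cmGch1 KO 102 ± 16 cpm (log2 difference −0.20, exact permutation p = 0.104, 0.156 adjusted over the 3).

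**Figure D1:**
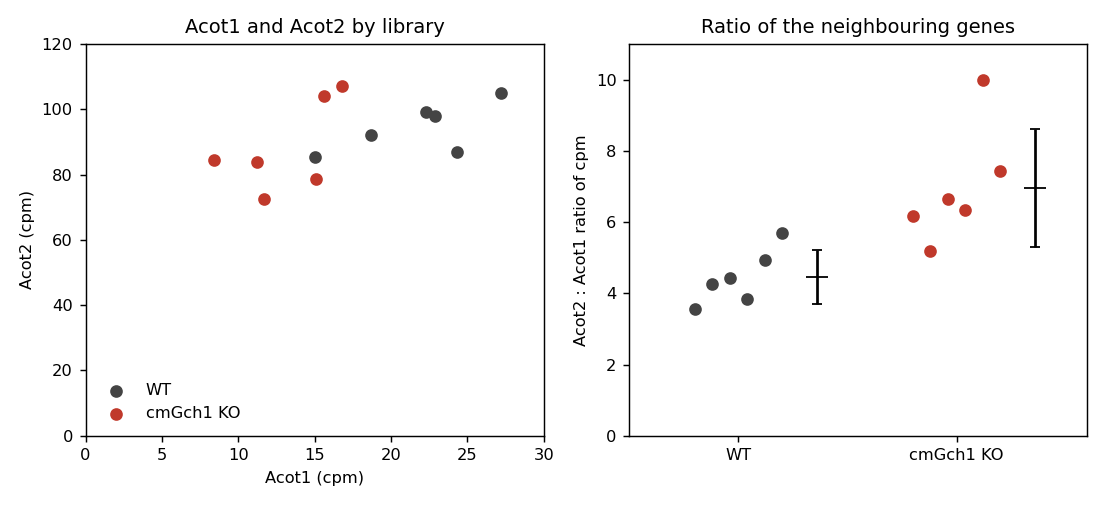
Left, Acot2 against Acot1 in cpm, 1 point per library (WT grey, cmGch1 KO red); right, the ratio of Acot2 to Acot1 per library in order of replicate, with the mean and SD as a black bar. The ratio lies between 3.57 and 5.69 in the WT libraries and between 5.2 and 10 in the cmGch1 KO libraries.

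Acot7, a cytosolic thioesterase for long-chain acyl-CoA that is abundant in brain, had a lowest, median and highest level of 63.2, 74.4 and 84.5 cpm in WT, and in cmGch1 KO of 56.8, 60 and 67.7 cpm. All 6 cmGch1 KO libraries were below the WT median, and 4 were below every WT library. In means this was 73.9 ± 7.4 against 61.5 ± 5.06 cpm (SD, n = 6 each), 83.3% of WT. The log2 fold change of −0.26 (SE 0.08, 95% interval −0.43 to −0.09) had an edgeR adjusted p of 0.157. DESeq2 put it past the threshold, with an adjusted p of 0.0425. Without cmGch1 KO replicates 2 and 3 the log2 fold change was −0.28 with an edgeR adjusted p of 0.457. The gene (ENSMUSG00000028937) overlaps Gm13096 on the same strand and lies at chr4:152178134-152271855 on the plus strand.

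Abcd3, the peroxisomal importer, had a lowest, median and highest level of 96.8, 110 and 123 cpm in WT, and in cmGch1 KO of 85.3, 95.9 and 116 cpm. Of 6 cmGch1 KO libraries 5 were below the WT median and 3 below every WT library, while replicate 4 (116 cpm) was among the high values of both genotypes. Its log2 fold change was −0.18 (SE 0.08, edgeR adjusted p = 0.416). Abcd3 (ENSMUSG00000028127) lies at chr3:121758774-121815302 on the minus strand and overlaps Gm43609 and 4633401B06Rik on the same strand, so reads in the overlap are uncertain.

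The peroxisomal oxidation enzymes overlapped between genotypes. Ehhadh (ENSMUSG00000022853), at chr16:21761287-21787807 on the minus strand, had a lowest, median and highest level of 11.1, 16.4 and 20.7 cpm in WT, and in cmGch1 KO of 10.5, 13.4 and 19.5 cpm, a nearly equal span. Its log2 fold change of −0.23 had an SE of 0.18 (95% interval −0.62 to 0.17, edgeR adjusted p = 0.734), among the widest intervals of the 9 genes. The highest Ehhadh level was in WT replicate 2, the library with 30.5 cpm of the hepatocyte marker Alb. Without that library the log2 fold change was −0.15, where leaving out each library in turn gave −0.35 to −0.15. It was −0.17 without WT replicate 4, which had 0 cpm of Alb. The part of that marker in the value was not tested.

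Hsd17b4 (ENSMUSG00000024507), the D-bifunctional enzyme on chromosome 18 (50128201-50196269, plus strand), had a lowest, median and highest level of 101, 106 and 117 cpm in WT, and in cmGch1 KO of 94.8, 101 and 115 cpm. Acaa1a (ENSMUSG00000036138), the thiolase at chr9:119339676-119350299 on the plus strand, had 83.1, 89.1 and 96.8 cpm in WT, and in cmGch1 KO 79.8, 83 and 94.1 cpm. For both genes the spans of the genotypes overlapped over most of their length, with 3 of 6 cmGch1 KO libraries below every WT library in each. The log2 fold changes were −0.06 (SE 0.06) and −0.07 (SE 0.06), with 95% intervals of −0.19 to 0.07 and −0.20 to 0.06. Acaa1a overlaps Myd88 and Slc22a14 on the other strand and shares 12.6% of its 75-base runs with other transcripts, mostly Acaa1b, whose own level was 0.326 ± 0.156 cpm in WT (SD). The libraries were stranded, but the strand setting of the counting is not given in the sources used here. The ratio of Ehhadh to Hsd17b4, which catalyse the same steps, was 0.153 ± 0.031 in WT and 0.136 ± 0.0322 in cmGch1 KO (log2 difference −0.17, exact permutation p = 0.383).

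**Figure D2:**
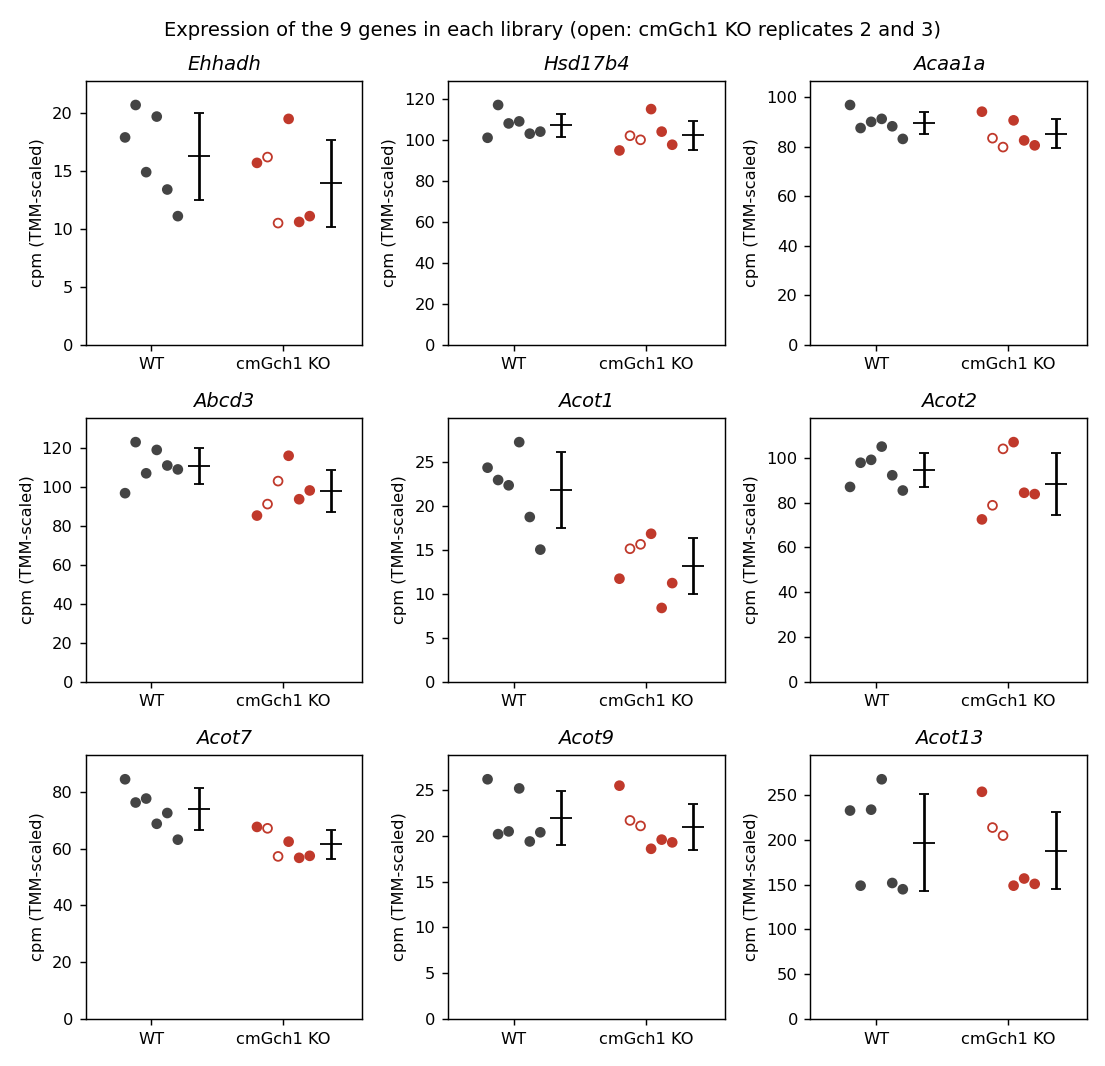
Level of each gene in cpm, 1 panel per gene with its own axis from 0, 1 point per library in order of replicate (WT grey, cmGch1 KO red, open points for cmGch1 KO replicates 2 and 3) and the mean with SD as a black bar. Acot1 shows the widest separation, with 5 of 6 WT libraries above the highest cmGch1 KO library, and Acot13 splits into a high and a low set in both genotypes.

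Across the 9 genes, 0 passed an adjusted p of 0.05 in either direction, when 0.445% of 11225 tested genes were called lower and 0.677% higher. With p taken before adjustment, 3 (Acot1, Acot7 and Abcd3) were below 0.05 with lower values and 0 with higher values, against 4.51% of all tested genes lower and 7.01% higher; with DESeq2, 2 (Acot1 and Acot7) were lower at an adjusted p under 0.05, where it called 1.38% of all tested genes lower and 1.94% higher. All 9 passed the filter on low counts, and all 9 log2 fold changes were below 0, except that Hsd17b4, Acaa1a, Acot9 and Acot13 had 0.00 to 0.02 when libraries were scaled by total counts alone. Their median was −0.10, where 53.3% of tested genes were below 0 with a median of −0.01. No gene of the 9 separated the genotypes without overlap, which 1.87% of tested genes did.

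The cardiomyocyte marker sum moved with genotype too. Under TMM scaling it spanned 50717 to 53848 cpm in WT, and in cmGch1 KO 42903 to 49153 cpm without overlap (log2 difference of means −0.19). Of its 6 markers 0 passed an adjusted p of 0.05, and their log2 fold changes ran from −0.26 to −0.11. The TMM factors were 0.9444 to 0.9875 in WT and 0.9646 to 1.079 in cmGch1 KO, and a higher factor lowers the cpm. The lack of overlap is therefore given for TMM scaling only, and scaling by total counts alone was not tried for this sum. Expressed per 10000 cpm of that sum, the log2 difference of Acot1 was −0.53 (4.16 ± 0.781 against 2.88 ± 0.745), that of Acot7 was −0.07 and those of the other 7 genes ran from −0.03 to 0.15. In bulk tissue, fewer cardiomyocytes and less RNA per cardiomyocyte cannot be told apart. Summed fibroblast markers were 738 to 988 and 846 to 1021 cpm, macrophage markers 77.4 to 95.4 and 92.9 to 107 cpm, and endothelial markers 597 to 813 and 684 to 838 cpm, in WT and cmGch1 KO, overlapping in each case. Their log2 differences of means were 0.16 (markers 0.01 to 0.44), 0.21 (−0.05 to 0.39) and 0.04 (−0.04 to 0.07). Erythroid markers summed to 383 to 1139 and 425 to 913 cpm (log2 difference of means −0.41, markers −0.43 to −0.30). Smooth muscle and pericyte markers summed to 851 to 956 and 872 to 1008 cpm (log2 difference of means 0.05, markers −0.40 to 0.66). Of the markers of these 6 cell types, Acta2, smooth muscle actin, passed an adjusted p of 0.05 (log2 fold change 0.66, SE 0.11, edgeR adjusted p = 0.00672). The part of these markers in the values of the 9 genes was not tested.

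Levels between genes were compared per kilobase of annotated exon (FPKM, WT mean ± SD, n = 6). Acot13, a small hotdog-fold thioesterase, came first at 264 ± 73.2, followed by Acot2 at 43 ± 3.44. Acot7 (34.8 ± 3.48) and Hsd17b4 (31.4 ± 1.65) came next, then Acaa1a (20.3 ± 1.03), Abcd3 (16.8 ± 1.42) and Acot9 (9.67 ± 1.29). Acot1 (5.54 ± 1.11) and Ehhadh (5.47 ± 1.26) were last. The WT ranges of the neighbours Acot2 and Acot7, Acot7 and Hsd17b4, and Acot1 and Ehhadh overlapped, so their order within each pair is not set by these libraries. Exon length was taken over all annotated transcripts, 3919 bases from 4 transcripts for Acot1 and 2196 from 1 for Acot2. The order of the genes therefore also depends on the annotation. Of the near relatives, Acot6 reached 4.09 ± 0.482 cpm, Acot3 1.31 ± 0.203 cpm and Acot4 1.12 ± 0.408 cpm in WT (SD), and Acot5 had 0 counts in every library.

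Acot13 and Acot9 followed a split of the libraries that genotype did not set. Acot13 (ENSMUSG00000006717), at chr13:24817948-24831540 on the minus strand, was 205 to 268 cpm in 6 libraries (WT replicates 1, 3 and 4 and cmGch1 KO replicates 1, 2 and 3) and 145 to 157 cpm in the other 6, with no library between. Its log2 fold change of −0.06 had an SE of 0.18 and a 95% interval of −0.45 to 0.33. Acot9 (ENSMUSG00000025287), a mitochondrial thioesterase at chrX:155262443-155297654 on the plus strand, ran from 19.4 to 26.2 cpm in WT with a median of 20.4, and from 18.6 to 25.5 cpm in cmGch1 KO with the same median of 20.4. Its log2 fold change was −0.07 (SE 0.10, edgeR adjusted p = 0.891). Of its 75-base runs 5.29% also occurred in other transcripts, mostly Acot10, which had at most 0.138 cpm in any library.

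The genes most like Acot13 over the 12 libraries were Rpl10a, Mrpl57 and Rpl12 (each r = 0.99 on log2 cpm), which encode ribosomal proteins. With r above 0.9 there were 512 genes, 53 of them among the 126 tested Rpl and Rps genes, and their median exon length was 2048 bases. With r below −0.9 there were 102 genes, 0 of them Rpl or Rps, with a median exon length of 9531 bases, where the median over all tested genes was 4568 bases. Acot9 had 84 genes above 0.9 (median 1956 bases), led by Fabp4 (r = 0.95). The points share library and normalization and pool both sets, and these correlations are given as description. No batch label was found for this split, and its part in the values was not tested. Within the high set Acot1 was 22.3 to 27.2 cpm in WT, and in cmGch1 KO 11.7 to 15.6 cpm, and in the low set 15 to 22.9 and 8.38 to 16.8 cpm; log2 differences were −0.80 and −0.67. The Acot2 to Acot1 ratio differed by 0.60 and 0.66 on the log2 scale, and Acot7 by −0.26 in each. The high set includes cmGch1 KO replicates 2 and 3, the only libraries with high Xist. Genotype and sex-linked expression therefore cannot be told apart within it, and both sets were drawn by the level of Acot13. With 1 surrogate variable as a covariate, a fit added after the split was seen, Acot1 had an adjusted p of 0.0161 and Acot7 of 0.0181 in edgeR.

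**Figure D3:**
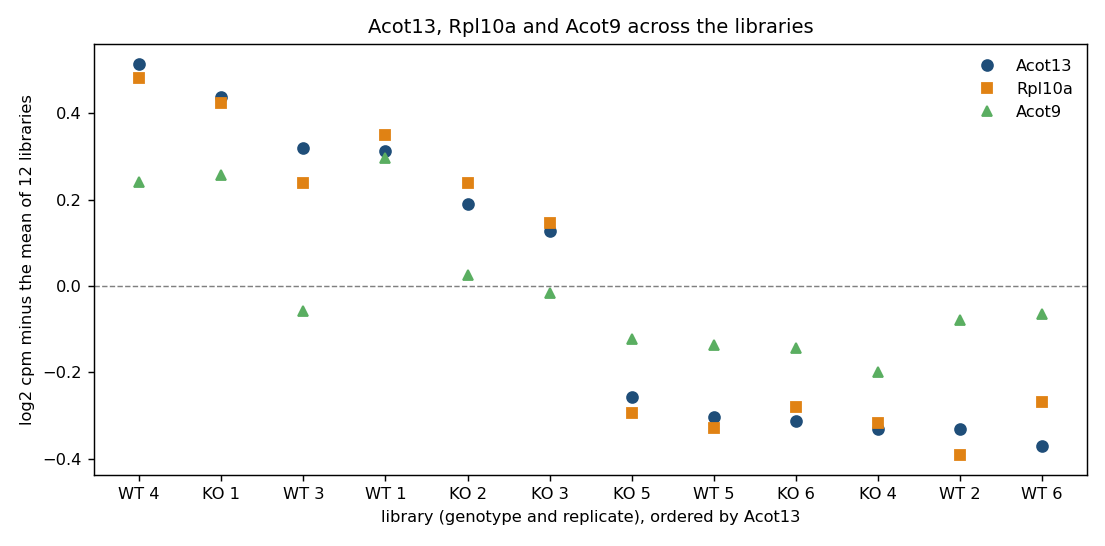
Log2 cpm minus the mean of the 12 libraries for Acot13 (circles), Rpl10a (squares) and Acot9 (triangles), with libraries ordered by Acot13. The 6 libraries on the left have Acot13 at 205 cpm or more and the 6 on the right at 157 cpm or less, with 3 libraries of each genotype in each set.

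Among themselves, the genes varied in separate ways over the 12 libraries (Pearson r of log2 cpm, a description). Abcd3 went with Acot2 (r = 0.84) and Hsd17b4 (r = 0.82), and Acaa1a and Acot1 each went with Acot7 (r = 0.76 for both; within genotype 0.74 and 0.47). Acot9 went with Acot13 (r = 0.84). Acot1 and Acot2, neighbours that share reads, had r = 0.59. Closest outside the list was Agtpbp1 for Abcd3 (r = 0.95), with Acsl1, a long-chain acyl-CoA synthetase, second (r = 0.93). The closest gene was Coq5, a coenzyme Q methyltransferase, for Acot1 (r = 0.92, within genotype 0.82). For Acot2 it was Tmem135, a protein of peroxisomes and mitochondria (r = 0.90). For Acot7 it was Idh3g, a subunit of isocitrate dehydrogenase (r = 0.93, within genotype 0.85), and for Ehhadh it was Fdxacb1 (r = 0.95). For Hsd17b4 it was Zmym3 (r = 0.93) and for Acaa1a it was Mrps30, a mitochondrial ribosomal protein (r = 0.96).

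The rest of the peroxisome showed few differences. Of 17 other β-oxidation enzymes 13 were tested, with 0 past an adjusted p of 0.05 and a median log2 fold change of −0.04. At an unadjusted p under 0.05 the lower genes numbered 2, Ech1, a dienoyl-CoA isomerase (−0.35, SE 0.13, edgeR adjusted p = 0.247), and Crat, carnitine acetyltransferase (−0.19, SE 0.06, adjusted p = 0.191). Of 9 other transporters and membrane proteins 8 were tested and 0 passed either threshold (Abcd2 −0.08, median −0.03). Of 17 peroxins, which build and divide the organelle, 16 were tested, 0 passed the adjusted threshold and 2 passed the unadjusted one, both with lower values: Pex11a, which drives peroxisome proliferation (−0.34, SE 0.12), and Pex10 (−0.23, SE 0.10). Of 16 antioxidant, protease and ether lipid genes 12 were tested and 0 passed the adjusted threshold, with Far1 (0.30, SE 0.11) and Lonp2 (0.14, SE 0.06) past the unadjusted threshold with higher values; catalase (Cat) had −0.03.

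Of 20 other thioesterases and CoA hydrolases listed, 18 were found by symbol and 11 tested. None of the 11 passed the adjusted threshold in edgeR, and Fasn, whose fatty acid synthase protein ends in a thioesterase domain, was higher at an unadjusted p under 0.05 (19.7 ± 3.04 to 25.9 ± 2.96 cpm, log2 fold change 0.39, edgeR adjusted p = 0.125). Acot8, a peroxisomal thioesterase (−0.03), and Acot11 (−0.15) were among those that passed neither threshold.

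Among 23 PPARα targets outside the peroxisome, 18 were tested and 1 passed the adjusted threshold, with higher values, as did 0.677% of all tested genes. Ucp2, a mitochondrial carrier, was higher in cmGch1 KO, at 62.2 to 113 cpm against 33.9 to 55.5 cpm, without overlap (log2 fold change 0.98, SE 0.15, edgeR adjusted p = 0.00612), opposite in sign to Acot1. Its highest values, 113 and 101 cpm, were in cmGch1 KO replicates 2 and 3, and without both the log2 fold change was 0.76 (SE 0.14, edgeR adjusted p = 0.0465). At an unadjusted p under 0.05, Cpt2 (−0.19) and Slc25a20 (−0.22) of the carnitine shuttle were lower and Cidea (0.24) was higher besides Ucp2, and the median of the 18 was −0.08. The lowest log2 fold change of the 18 was that of G0s2 (−0.42, SE 0.22, edgeR adjusted p = 0.503). Ppara itself had 41.4 ± 9.04 cpm in WT, and cmGch1 KO had 34.3 ± 9.53 cpm (SD, n = 6 each; log2 fold change −0.26, SE 0.18).

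The mitochondrial β-oxidation spiral is the main route of fatty acid breakdown in heart. All 14 of its listed genes were tested and had log2 fold changes below 0, with a median of −0.21, from Hadh (−0.35) to Acadl (−0.13). None passed an adjusted p of 0.05 in edgeR. Of the 14, 9 were lower at an unadjusted p under 0.05, as were 4.51% of all tested genes. The cardiomyocyte marker sum differed by −0.19 under TMM scaling, and its part in these values was not tested. Over the 116 genes of the 7 related lists, 92 were tested, with 0 lower and 1 higher at the adjusted threshold in edgeR and a median of −0.07. Before adjustment 15 were lower and 5 higher at p under 0.05, where 4.51% of all tested genes were lower and 7.01% higher. DESeq2 called 2 lower and 2 higher, where it called 1.38% of all tested genes lower and 1.94% higher.

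**Figure D4:**
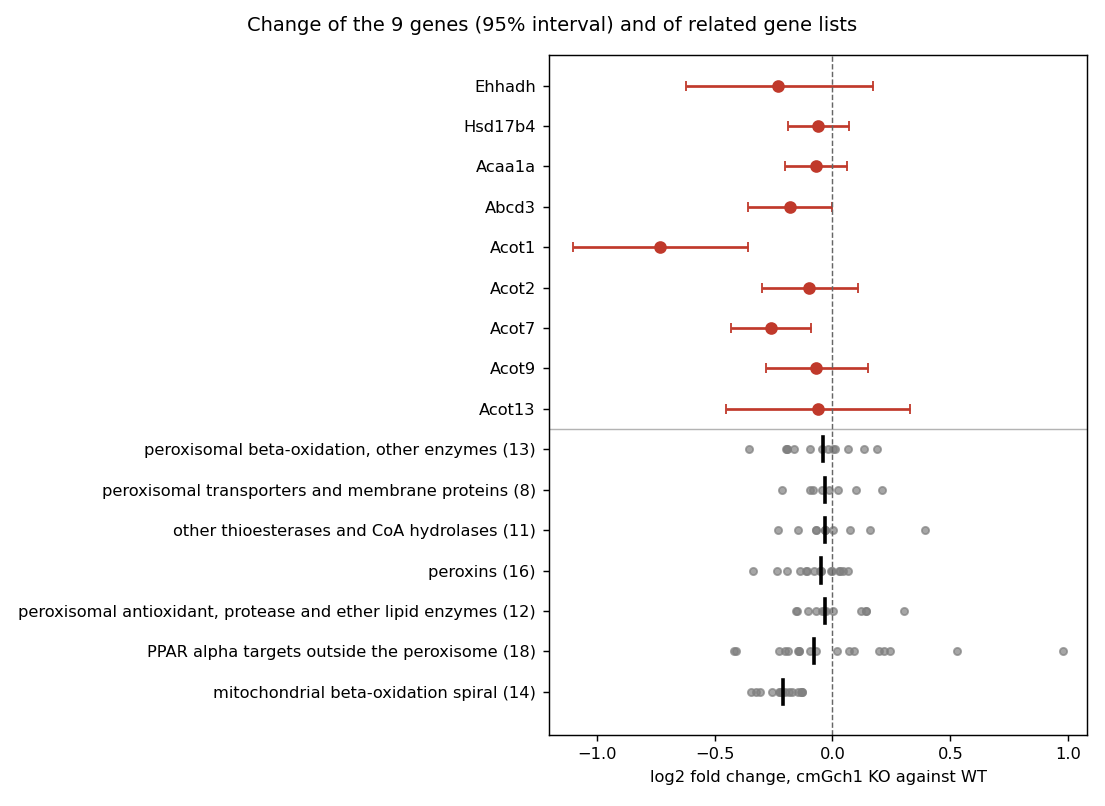
Log2 fold change between genotypes (cmGch1 KO over WT) for the 9 genes (red, with 95% intervals) and for the tested genes of 7 related lists (grey points, number tested in brackets, black bar for the median). Acot1 at −0.73 is lowest, and list medians lie between −0.21 and −0.03.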

How the data were processed

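Per the labels and the study's methods, the authors prepared dUTP-stranded paired-end libraries from left ventricle, sequenced them on an Illumina instrument, and aligned reads with HISAT2 to GRCm38 (the submitters' processing notes also name SAMtools). The deposited values are raw gene counts from featureCounts and a table of normalized values whose range reads as a log2 scale set by the authors, with a tool that is not given in the sources used here. The annotation release and the strand setting are not given in the sources used here; 98.6% of identifiers were found in GENCODE M21.

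Counts were tested by genotype (6 against 6, no covariate) with edgeR 4.0.16 (quasi-likelihood, TMM) in R 4.3.3, on the 11225 genes that exceeded a cpm of 3 in 6 or more libraries, with Benjamini-Hochberg adjustment and a threshold of 0.05. Values in cpm use TMM-scaled library sizes. Ratios and sums were tested by two-sided exact permutation. The fit was tested on simulated data. Alternatives used DESeq2 1.42.0, limma 3.58.1 on the log2 values, sva 3.50.0, other scaling and filters, and each library left out. All same-genotype pairs differed by more than sampling noise. The study's methods define a single animal as the experimental unit. Counting limits cover counting error only.

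The members and lists were chosen with earlier results of these data known. Genes named beyond them were drawn from the 3 nearest by correlation to each, list genes with adjusted or unadjusted p under 0.05 and the extremes of each list, near paralogues, Ppara, Gch1 and sex-linked genes. Not all of the nearest genes and list extremes are named. Abcd2, Acot8, Acot11, Cat and Acta2 were named after their values were seen. Promoter sequences are from RefSeq and coding sequences from GRCm38 with GENCODE M21. Marker sums in WT and in cmGch1 KO were also 1.94 to 8.63 and 0.388 to 7.77 cpm for adipocytes, 0.186 to 40 and 0.0554 to 2.09 cpm for hepatocytes, and 7.66 to 285 and 45.3 to 188 cpm for atrial cardiomyocytes; 0 of the first 2 lists' markers were high enough to be tested, and 0 of 3 tested atrial markers passed the threshold.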

Additional observations from a re-analysis of the deposited data

Results flagged for a closer look

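None of the 9 genes had a library far from the other 5 of its genotype by Dixon's criterion (a gap to the nearest library of over 0.625 of the range). The 94 groups of 6 values examined were both genotypes of 44 tested genes (the 9, Gch1, Ppara, Acot6 and the genes named from the related lists) and of the 3 derived quantities. Of these 9 passed the criterion, all in genes of the related lists, 7 in cmGch1 KO and 2 in WT; chance flags about 1 in 20 groups. In cmGch1 KO replicate 1, Ech1 was 1484 cpm against 899 to 981 cpm in the other 5 (gap over range 0.86), Slc25a20 254 cpm against 183 to 200 cpm (0.769), Pxmp2 64.1 cpm against 42.3 to 47.4 cpm (0.769) and Eci1 301 cpm against 217 to 246 cpm (0.65). In the same library Acot11 was low, at 13.2 cpm against 18.2 to 20.5 cpm (0.677). Cat in cmGch1 KO replicate 4 was 245 cpm against 197 to 203 cpm (0.865), and Far1 in replicate 5 was 31.1 cpm against 22.8 to 25.7 cpm (0.658). In WT, Acox3 in replicate 2 was 27.1 cpm against 20.7 to 22.6 cpm (0.701), and Pex14 in replicate 6 was 15.5 cpm against 19.2 to 20.8 cpm (0.687).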

How the results depend on the processing

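Acot1 kept its direction in every alternative tried (log2 fold change −0.86 to −0.60), as did Acot7 (−0.31 to −0.19), Abcd3 (−0.23 to −0.10), Acot2 (−0.16 to −0.02) and Ehhadh (−0.35 to −0.15). The count of the 9 genes lower at an adjusted p under 0.05 was 0 as reported, 2 with DESeq2, 1 with no filter on low counts, 1 with the replicate number as a block and 2 with 1 surrogate variable (added after seeing the data), and 0 to 1 with each library left out (1 without WT replicate 6 and 1 without cmGch1 KO replicate 4); the cause was not tested. Higher calls stayed at 0. Acot1 had an adjusted p of 0.0397 with no filter, 0.0113 with the block and 0.09 when sex-linked expression was a covariate (−0.83). For genes of the related lists, lower calls were 2 with DESeq2, 2 with the block, 13 with the surrogate variable and 0 to 4 with each library left out (4 without cmGch1 KO replicate 1), and higher calls were 2, 2 and 3 under the first 3 of these. Scaling by library size alone moved the median of all genes to 0.066 and gave Hsd17b4 0.02, Acaa1a 0.00, Acot9 0.01 and Acot13 0.02; with each library left out Acot13 ranged from −0.17 to 0.05, and was above 0 without WT replicate 4. The Acot2 to Acot1 ratio stayed between 0.52 and 0.74, with p of 0.00433 to 0.00866. The sum of Acot1 and Acot2 ranged from −0.26 to −0.15 with each library left out, with p = 0.0303 without cmGch1 KO replicate 4 and p = 0.0411 without replicate 3 (exact permutation). Over all genes, calls were 126 as reported, 373 with DESeq2, 636 with the surrogate variable, 34 without both high-Xist libraries, 64 with the sex covariate and 72 to 207 with each library left out. Replicate numbers follow accession order, and no label pairs the libraries. Over same-numbered pairs the r of deviations was −0.128 to 0.676. WT replicates 1, 5 and 6 were best matched to the cmGch1 KO library of their own number, and the other WT replicates to another number. Whether the numbers mark pairs is not settled by these values, and the block fit (188 genes over all) is given only here. Counts a library were 214 to 975 for Acot1 and 242 to 712 for Ehhadh, the members with the fewest.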
